A study of Mus musculus with 8 samples.

Results

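Checkpoint-high CD8 T cells are CD8 T cells in which the inhibitory receptor genes Pdcd1, Lag3 and Havcr2 and the activation-induced receptor gene Tnfrsf9 gave at least 2 transcript counts in sum. Members were chosen by counts of unique molecular identifiers (UMIs, 1 for each captured transcript) among sequenced cell barcodes. A barcode needed 500 UMIs or more, 300 detected genes or more and a mitochondrial share of no more than 10%, at least 2 UMIs of Cd3d, Cd3e and Cd3g, none of the B cell genes Cd79a and Ms4a1, at most 2 of the macrophage genes C1qa, C1qb and C1qc, at least 1 of Cd8a and Cd8b1, and none of Cd4. Of 25172 barcodes that passed the depth filters, 2149 met the whole rule: 1739 in library C2, 320 in C3, 61 in C1 and 29 in C4. The 6824 barcodes that passed every gate but had a receptor sum of 0 or 1 are called checkpoint-low CD8 barcodes here, with 165, 583, 5024 and 1052 in C1 to C4. Because the receptor sum chose the members, everything that separates them from checkpoint-low barcodes is given as a description, with no test.

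The study profiled leukocytes sorted for CD45 from the submandibular gland, a salivary gland, and from its draining lymph nodes. The labels give SS mice, gland; control mice, gland; SS mice, lymph node; and control mice, lymph node, with 1 expression library for each combination, from 4 mice of each genotype at about 12 weeks. SS is not spelled out in the labels, which state neither a strain nor a transgene, and single mice cannot be told apart within a library. The 4 expression libraries, named C1 to C4, are tied to no genotype or tissue by a label, a header or a file name, and none was assigned from its content, so values stand side by side. There were no replicates, and intervals in parentheses are 95% intervals that cover counting error only.

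Inhibitory receptors appear on CD8 T cells after T cell receptor stimulation. When stimulation persists, as in chronic infection, tumours and autoimmune tissue, they stay on the surface and the cells enter a state called exhaustion, which the transcription factor Tox helps to establish. Cells of this state range from progenitors that keep the transcription factor gene Tcf7 to terminally differentiated cells that lose it and gain Havcr2. In salivary glands, CD8 T cells are among the cells that infiltrate the tissue in autoimmune disease.

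The receptor genes that define the members lie on different chromosomes of the RefSeq GRCm38.p6 annotation. Pdcd1, which encodes PD-1, spans chr1:94038305-94052553. Lag3, whose product binds MHC class II, spans chr6:124904359-124912434. Havcr2, which encodes TIM-3, spans chr11:46454931-46481255. Tnfrsf9, a costimulatory receptor of the TNF receptor family, spans chr4:150920155-150946104. The 250 bases before the start of each gene in the RefSeq promoter table are shown because these are the genes whose counts set the class. They are given 5′ to 3′ on the gene's strand, and capitals mark the AP-1 motif TGANTCA and the RUNX motif TGTGGT, searched on both strands.
Pdcd1, chr1:94052554-94052803, minus strand: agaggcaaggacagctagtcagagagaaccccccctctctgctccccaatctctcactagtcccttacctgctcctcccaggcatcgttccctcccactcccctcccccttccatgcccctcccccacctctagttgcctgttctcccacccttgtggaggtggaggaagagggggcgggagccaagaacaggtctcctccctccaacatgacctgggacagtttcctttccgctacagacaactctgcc
Havcr2, chr11:46454681-46454930, plus strand: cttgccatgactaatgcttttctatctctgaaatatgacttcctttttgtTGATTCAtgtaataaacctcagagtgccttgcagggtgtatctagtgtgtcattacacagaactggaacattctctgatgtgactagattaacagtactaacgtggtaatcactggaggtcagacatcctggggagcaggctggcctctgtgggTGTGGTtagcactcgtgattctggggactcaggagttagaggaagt
Tnfrsf9, chr4:150919905-150920154, plus strand: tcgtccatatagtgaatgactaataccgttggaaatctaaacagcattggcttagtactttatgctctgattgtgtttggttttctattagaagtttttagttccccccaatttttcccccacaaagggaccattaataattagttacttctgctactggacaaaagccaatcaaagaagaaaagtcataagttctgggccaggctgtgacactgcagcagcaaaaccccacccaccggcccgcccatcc
The Havcr2 window held an AP-1 match that begins 200 bases before the start and a RUNX match that begins 46 bases before it. Neither motif was found in the windows of Pdcd1 and Tnfrsf9. The NFAT core motif GGAAAN, left in lower case, matched 29 and 24 bases before the Pdcd1 start on the minus strand of the window, and 220 and 138 bases before the Tnfrsf9 start. The NR4A motif AAGGTCA was in none of the 3 windows. Of 32851 promoter windows of the same length, 55.5% held the NFAT core, 14.0% the RUNX motif, 6.75% the AP-1 motif and 4.08% the NR4A motif, so these matches describe letters only.

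Checkpoint-high barcodes made up most CD8 barcodes of C2 and few of those in C3 and C4. Their share of CD8 barcodes was 74.9% (73.1 to 76.6%) of 2322 in C2 and 27.0% (21.3 to 33.3%) of 226 in C1. C3 had 5.99% (5.37 to 6.66%) of 5344 and C4 2.68% (1.80 to 3.83%) of 1081. C2 alone therefore held 1739 of the 2149 members. Total depth was between 37902916 and 77819179 UMIs a library. Members had a median depth of 7352, 5306, 7959.5 and 10664 UMIs in C1 to C4, against 6405, 4686, 8959 and 7298 UMIs for checkpoint-low barcodes. Since a receptor sum on raw UMIs grows with depth, CD8 barcodes were also thinned to 4042 UMIs each, which left out 15, 603, 218 and 61 shallower barcodes. The share was then 70.1% (67.9 to 72.3%) for C2, 14.7% (10.2 to 20.2%) for C1, 2.87% (2.43 to 3.36%) for C3 and 1.18% (0.609 to 2.05%) for C4. The order of the libraries was the same at equal depth. Among B cell barcodes, a class that should lack these receptors on most cells, a receptor sum of at least 2 occurred in 2 of 104, 1 of 25, 2 of 671 and 0 of 1849 barcodes of C1 to C4, or 1.92%, 4.00%, 0.298% and 0%, at median depths of 7161, 32937, 5196 and 3896 UMIs. The count of 0 allows up to 0.199%. Across pairs of libraries, 311 barcode sequences of kept barcodes were shared, of which 1 was a member in both libraries.

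**Figure D1:**
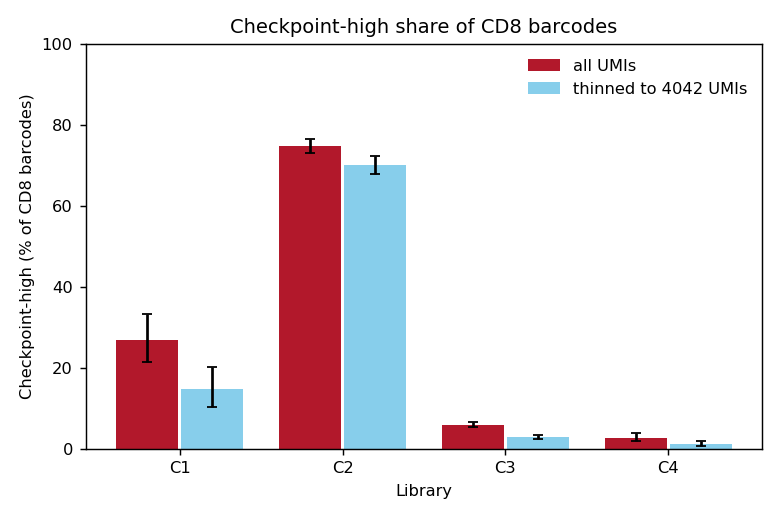
Bars give checkpoint-high barcodes as a percentage of CD8 barcodes in each library, on all UMIs and after thinning every barcode to 4042 UMIs; error bars are exact 95% binomial intervals for counting error. C2 stands at 74.9% and 70.1%, above C1 at 27.0% and 14.7%, and C3 and C4 lie below 6%.

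Which receptors brought a barcode into the class differed among libraries. Pdcd1 was detected in 62.3%, 91.1%, 52.5% and 37.9% of members of C1 to C4. Lag3 was detected in 36.1%, 80.1%, 71.6% and 51.7%. Havcr2, the receptor of late exhaustion, was found in 14.8%, 45.4%, 25.6% and 6.90%. Tnfrsf9 was detected in 50.8%, 39.6%, 42.2% and 62.1%. Pdcd1 was thus the most often detected of these genes in C1 and C2, Lag3 in C3 and Tnfrsf9 in C4. The most common combination in C2 was Pdcd1 with Lag3 only, in 469 members, followed by all 4 genes together in 427 members (24.6%). In C3, 16 of 320 members held all 4 genes, in C1 1 of 61 and in C4 0 of 29. Pdcd1 alone was the most common pattern in C1 (18 members) and Tnfrsf9 alone in C4 (10 members).

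The median receptor sum of a member was 7 UMIs in C2 and 3 UMIs in C1, C3 and C4. Barcodes just inside the rule, with a sum of 2, numbered 27, 213, 119 and 13 in C1 to C4, and those just outside it, with a sum of 1, numbered 43, 276, 412 and 40. In C2, barcodes just inside held Tcf7 at 103 CPM and Ccl3 at 268 CPM, against 149.5 and 257 CPM just outside; CPM is a gene's UMIs per 1000000 UMIs summed over the barcodes named. In C3, Gzmk stood at 302 CPM just inside, against 127 CPM just outside and 17.2 CPM at a sum of 0. These are levels summed over barcodes, so whether single cells near the cut-off form a range or a mixture of kinds was not tested.

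Members and checkpoint-low barcodes alike had to carry Cd3 and CD8 UMIs, so the presence of these T cell genes was set by the rule. Cd8a, the alpha chain of the CD8 coreceptor, stood at 840.3, 1302, 515 and 474 CPM in checkpoint-high barcodes of C1, C2, C3 and C4, against 950.5, 844, 390.3 and 464 CPM in checkpoint-low barcodes. In C1 the order turned without the 17 members and 16 checkpoint-low barcodes that carried markers of other cell types (at least 3 UMIs of H2-Aa, H2-Ab1 and H2-Eb1 together, at least 3 of Lyz2, or at least 1 of the NK receptor genes Ncr1 and Klrb1c), to 1206 CPM in checkpoint-high and 996 CPM in checkpoint-low barcodes. The list of 8 CD8 and T cell receptor complex genes summed to 5361, 8881, 4934 and 4020.1 CPM in checkpoint-high barcodes of C1, C2, C3 and C4, against 5831, 6334, 4466 and 4920 CPM in checkpoint-low barcodes. Its genes Cd8a, Cd8b1, Cd3d, Cd3e and Cd3g were also those of the rule. In C4 the label rests on 29 barcodes, 10 of which had Tnfrsf9 as their only receptor gene. The deepest of the 29 held 80012 UMIs, and 5 barcodes gave 42.5% of the members' UMIs of this list of 8 genes. Levels summed over members of C4 thus lean on few barcodes.

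Across all genes with at least 10 expected UMIs in each class, 611 of 9654 (6.33%) were at least 2-fold higher and 162 (1.68%) at least 2-fold lower in checkpoint-high than in checkpoint-low barcodes of C2, 8.01% in either direction. In C3 the counts were 841 of 9496 (8.86%) higher and 343 (3.61%) lower, together 12.5%. In C1 they were 152 of 5774 (2.63%) higher and 105 (1.82%) lower, together 4.45%. The contrast is the one the receptor sum was taken from, so nothing is read from these counts, and C4, with 29 members, gave none. The median log2 ratio over all genes was 0.12 in C1, 0.13 in C2 and 0.21 in C3. Of the genes higher in C2, 187 were also higher in C3, which is 30.6% of the C2 genes and 22.2% of the C3 genes. Only 354 of the 611 C2 genes entered the comparison in C3, and 187 is 52.8% of those. In C1, C2 and C3 alike, 5677 genes entered. Of these, 14 were at least 2-fold higher in each library: Pdcd1, Lag3 and Tnfrsf9 of the rule, Entpd1, Ccl3, Xcl1, Rgs16, Cx3cr1, Tyrobp, Fcer1g, Hivep3, Ptms, Tspan32 and Zfp52. Of the same 5677 genes, the 7 at least 2-fold lower in each library were Il7r, Lef1, Satb1, S1pr1, Ly6c2, Sidt1 and Tgtp1. Some of these were singled out after their values were seen, since they fell outside the rule for named genes.

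Other inhibitory receptors stood higher in members of C2 and C3. Their list of 11 genes summed to 764, 1395 and 500.3 CPM in checkpoint-high barcodes of C1, C2 and C3, against 563, 759.9 and 149.7 CPM in checkpoint-low barcodes, with median log2 ratios of 0.40, 0.67 and 1.75. In C2, 4 of 11 genes that entered were at least 2-fold higher and 1 lower, in C3 6 of 9 were higher, and in C1 2 of 7. Tigit, an inhibitory receptor shared by T and NK cells, stood at 144, 571, 159 and 59.5 CPM in checkpoint-high barcodes of C1, C2, C3 and C4, against 131, 289, 19.8 and 4.09 CPM in checkpoint-low barcodes. Its high over low ratio was 1.10 (0.823 to 1.45) in C1, 1.97 (1.84 to 2.12) in C2 and 8.03 (7.22 to 8.91) in C3, so in C1 the interval included 1. Ctla4, which competes with CD28 for its ligands, stood at 169.9, 338 and 106 CPM in checkpoint-high barcodes of C1, C2 and C3, against 128, 213 and 14.7 CPM in checkpoint-low barcodes. Entpd1, which encodes the ectonucleotidase CD39, reached a ratio of 3.76 (2.95 to 4.85) in C2 and 3.37 (2.34 to 4.76) in C3. Cd200r1, the receptor for CD200, had the largest ratio of the list in C2, with 61.3 CPM in checkpoint-high barcodes against 5.76 CPM in checkpoint-low barcodes. Klrg1, a receptor of short-lived effector cells, went opposite ways, with 14.4 CPM in checkpoint-high barcodes against 31.2 CPM in checkpoint-low barcodes of C2 and 36.0 CPM in checkpoint-high barcodes against 1.64 CPM in checkpoint-low barcodes of C3.

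Costimulatory receptors varied by gene. Over their 8 genes the median log2 ratio was 0.25, 0.17 and 0.58 in C1, C2 and C3. Cd27, a TNF family receptor of naive and memory T cells, stood at 105, 230.3 and 206 CPM in checkpoint-high barcodes of C1, C2 and C3, against 79.3, 175 and 170.5 CPM in checkpoint-low barcodes, so these levels were close. Slamf6, a receptor that marks progenitor cells of the exhausted lineage, stood at 3.73, 21.4, 115 and 165 CPM in checkpoint-high barcodes of C1, C2, C3 and C4, against 14.7, 59.0, 24.8 and 79.0 CPM in checkpoint-low barcodes. It was therefore lower in members of C2 and higher in members of C3. Tnfrsf4, which encodes OX40, stood at 21.8 CPM in checkpoint-high barcodes against 3.39 CPM in checkpoint-low barcodes of C2 and 40.7 CPM in checkpoint-high barcodes against 2.67 CPM in checkpoint-low barcodes of C3, and was found in 4.83% and 11.2% of members.

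Transcription factors of the exhausted and activated states were higher in members, most broadly in C3. Of 14 such genes, 12 were at least 2-fold higher in C3 and 5 in C2, while 0 of 11 were in C1. The list's median log2 ratio was 0.39, 0.90 and 2.12 in C1, C2 and C3. Tox, the factor named above, stood at 110.2, 398, 126 and 104 CPM in checkpoint-high barcodes of C1, C2, C3 and C4, against 61.2, 171, 37.3 and 58.4 CPM in checkpoint-low barcodes. Its ratio was 1.80 (1.25 to 2.58) in C1, 2.32 (2.12 to 2.55) in C2 and 3.37 (3.03 to 3.73) in C3. Tox2, a relative of Tox, stood at 75.8 CPM in checkpoint-high barcodes against 16.6 CPM in checkpoint-low barcodes of C2 and 28.1 CPM in checkpoint-high barcodes against 0.883 CPM in checkpoint-low barcodes of C3, and had no UMI in the 61 members of C1. Nr4a2, an orphan nuclear receptor induced by T cell receptor signals, stood at 372, 507 and 77.0 CPM in checkpoint-high barcodes of C1, C2 and C3, against 323, 244 and 15.9 CPM in checkpoint-low barcodes. Nr4a1, of the same family, was lower in members of C2, with 154 CPM in checkpoint-high barcodes against 268 CPM in checkpoint-low barcodes, and higher in members of C3, with 26.2 CPM in checkpoint-high barcodes against 6.26 CPM in checkpoint-low barcodes. Id2, an inhibitor of E proteins in effector T cells, stood at 443, 714, 333 and 108 CPM in checkpoint-high barcodes of C1, C2, C3 and C4, against 361, 362, 153 and 103 CPM in checkpoint-low barcodes. Rbpj, the DNA-binding partner of Notch, stood at 152 CPM in checkpoint-high barcodes against 38.3 CPM in checkpoint-low barcodes of C2. The effector factor Eomes, by contrast, differed less, with 89.6, 227 and 222 CPM in checkpoint-high barcodes of C1, C2 and C3, against 79.3, 276 and 133 CPM in checkpoint-low barcodes, and none of the 5 effector factors passed 2-fold in C1 or C2.

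**Figure D2:**
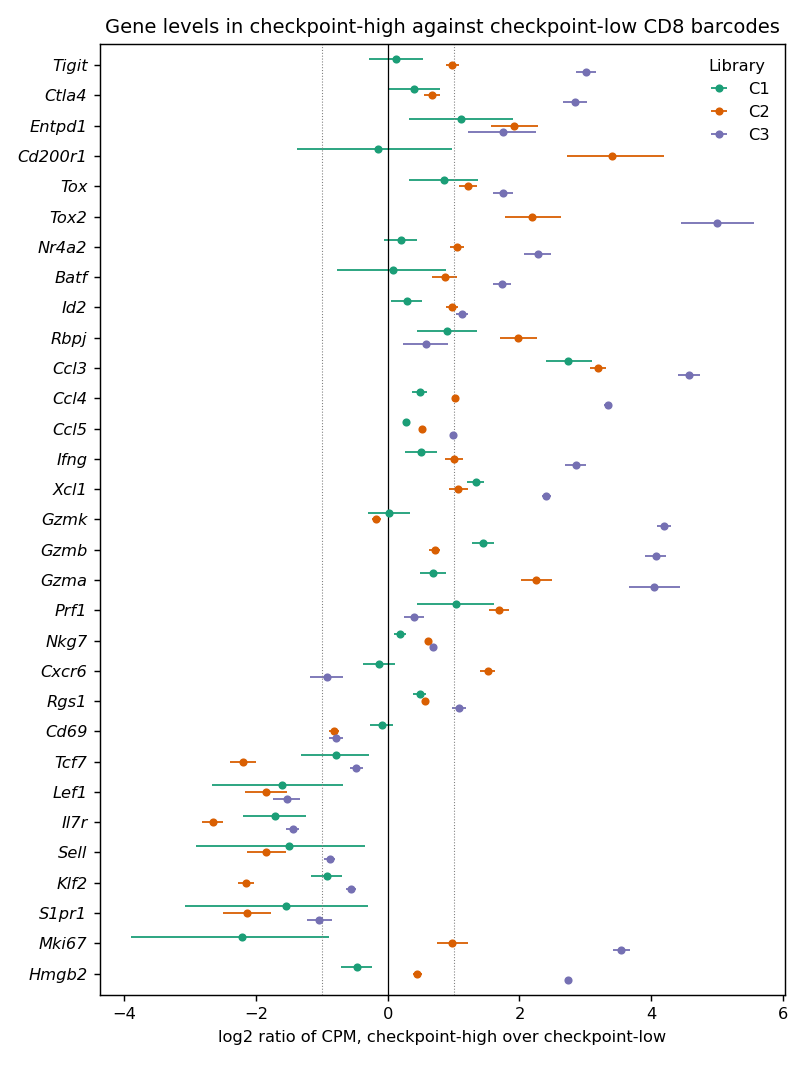
Points give the log2 ratio of summed CPM, checkpoint-high over checkpoint-low CD8 barcodes, for each gene in C1, C2 and C3; bars are exact 95% intervals for counting error, dotted lines mark 2-fold, and genes with too few expected UMIs are left out. Ccl3 lies to the right and Il7r and Lef1 to the left of the dotted lines in all 3 libraries. Gzmk and Cxcr6 lie on different sides of the solid line of equal levels, depending on the library.

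Genes of secreted cytokines and chemokines were together higher in members of C1, C2 and C3. Their list of 11 genes summed to 14520, 28405 and 15702 CPM in checkpoint-high barcodes of C1, C2 and C3, against 10524, 17902 and 7154 CPM in checkpoint-low barcodes. Of those that entered, 3 of 8 were at least 2-fold higher in C1, 6 of 9 in C2 and 4 of 6 in C3, with median log2 ratios of 0.50, 1.02 and 2.63. Ccl3, an inflammatory chemokine, stood at 536, 1601, 224 and 0 CPM in checkpoint-high barcodes of C1, C2, C3 and C4, against 80.1, 175, 9.39 and 1.61 CPM in checkpoint-low barcodes. The ratio was 9.13 (8.37 to 9.99) in C2 and 23.8 (21.2 to 26.8) in C3, and in C1 62.4% of the members' Ccl3 UMIs came from 1 barcode. Ccl4, a close relative, stood at 2048, 3702, 948 and 48.5 CPM in checkpoint-high barcodes of C1, C2, C3 and C4, against 1463, 1821, 93.2 and 27.0 CPM in checkpoint-low barcodes. Ccl5, which marks effector and memory CD8 cells, stood at 9322, 22374, 13748 and 879.9 CPM in checkpoint-high barcodes of C1, C2, C3 and C4, against 7694, 15538, 6904 and 992 CPM in checkpoint-low barcodes. Ifng, the cytokine interferon gamma, stood at 424, 316 and 139.8 CPM in checkpoint-high barcodes of C1, C2 and C3, against 298, 157 and 19.3 CPM in checkpoint-low barcodes. Xcl1, whose product attracts cross-presenting dendritic cells, stood at 1933, 306, 585 and 681 CPM in checkpoint-high barcodes of C1, C2, C3 and C4, against 765, 145, 110.1 and 39.2 CPM in checkpoint-low barcodes. In C4, 77.7% of those member UMIs came from 1 barcode. Il2, a T cell growth factor, was lower in members of C2, with 1.60 CPM in checkpoint-high barcodes against 15.9 CPM in checkpoint-low barcodes. It was higher in C3, with 15.0 CPM in checkpoint-high barcodes against 0.689 CPM in checkpoint-low barcodes, where 78.2% of the members' UMIs came from 1 barcode. In C1, 91.0% of the members' Il2 UMIs came from 1 barcode.

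Granule genes split by library. Gzmk, a granzyme of effector memory CD8 cells, stood at 235, 727, 483 and 19.8 CPM in checkpoint-high barcodes of C1, C2, C3 and C4, against 231, 819.5, 26.3 and 3.97 CPM in checkpoint-low barcodes. In C3 the ratio was 18.4 (17.1 to 19.8) and in C2 0.887 (0.848 to 0.929): checkpoint-low barcodes of C2 carried Gzmk as well. Gzmb, the granzyme of armed killer cells, stood at 1221, 705, 206 and 15.4 CPM in checkpoint-high barcodes of C1, C2, C3 and C4, against 449.8, 431, 12.3 and 0.124 CPM in checkpoint-low barcodes. Prf1, which encodes the pore protein perforin, stood at 95.2, 392, 101 and 19.8 CPM in checkpoint-high barcodes of C1, C2, C3 and C4, against 46.5, 122, 76.4 and 40.6 CPM in checkpoint-low barcodes, with a ratio of 3.22 (2.89 to 3.60) in C2. Gzma stood at 256 CPM in checkpoint-high barcodes against 53.9 CPM in checkpoint-low barcodes of C2, and was detected in 11.7% of members. Gzmm was lower in members of C2 and C3, at 4.62 and 91.4 CPM in checkpoint-high barcodes against 26.8 and 271 CPM in checkpoint-low barcodes. Nkg7, a granule membrane protein gene, was found in over 89% of members of every library, at 2469, 4855, 2392 and 558 CPM in checkpoint-high barcodes of C1, C2, C3 and C4, against 2166, 3162, 1492 and 752 CPM in checkpoint-low barcodes.

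Genes of naive and progenitor cells were lower in members of each library. Their list of 12 genes summed to 728, 284, 1699 and 1929.6 CPM in checkpoint-high barcodes of C1, C2, C3 and C4, against 1434, 1187, 2901 and 3512 CPM in checkpoint-low barcodes. Their median log2 ratio was -1.21, -1.84 and -0.96 in C1, C2 and C3. At least 2-fold lower were 5 of 10 genes that entered in C1, 10 of 12 in C2 and 6 of 12 in C3, and 3 of 12 were higher in C3. Il7r, the receptor chain for the survival cytokine IL-7, stood at 80.3, 45.8, 227 and 130.1 CPM in checkpoint-high barcodes of C1, C2, C3 and C4, against 261, 289, 618 and 428 CPM in checkpoint-low barcodes. Its ratio was 0.308 (0.218 to 0.424) in C1, 0.159 (0.142 to 0.177) in C2 and 0.368 (0.343 to 0.394) in C3. Tcf7 stood at 76.6, 36.1, 237 and 406 CPM in checkpoint-high barcodes of C1, C2, C3 and C4, against 132, 165, 329 and 445 CPM in checkpoint-low barcodes. It was detected in 10.6% of members of C2 and 60.6% of members of C3. Lef1, a factor related to Tcf7, had ratios of 0.278 (0.223 to 0.347) in C2 and 0.346 (0.301 to 0.397) in C3. S1pr1, the receptor by which lymphocytes leave tissue, stood at 11.2, 10.6, 66.1 and 33.1 CPM in checkpoint-high barcodes of C1, C2, C3 and C4, against 32.7, 46.5, 135 and 188 CPM in checkpoint-low barcodes. Id3, which is kept in memory and progenitor cells, stood at 3.37 CPM in checkpoint-high barcodes against 14.6 CPM in checkpoint-low barcodes of C2 and 105 CPM in checkpoint-high barcodes against 40.2 CPM in checkpoint-low barcodes of C3, opposite directions as for Slamf6.

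Residency and homing genes showed no common direction. Cxcr6, a chemokine receptor of tissue-dwelling T cells, stood at 392, 613, 37.9 and 24.3 CPM in checkpoint-high barcodes of C1, C2, C3 and C4, against 429, 214, 72.1 and 43.8 CPM in checkpoint-low barcodes. The ratio was 2.86 (2.64 to 3.11) in C2 and 0.526 (0.441 to 0.624) in C3. Cd69, an early activation and retention marker, stood at 695, 390.1 and 211 CPM in checkpoint-high barcodes of C1, C2 and C3, against 739, 683 and 362 CPM in checkpoint-low barcodes. Itgae, the integrin chain of intraepithelial T cells, stood at 211, 39.8, 6.28 and 46.3 CPM in checkpoint-high barcodes of C1, C2, C3 and C4, against 237, 37.0, 4.61 and 43.3 CPM in checkpoint-low barcodes, and the ratios in C1 to C3 stayed below 2-fold in either direction. Il2rb, a receptor chain for IL-2 and IL-15, stood at 674, 757 and 346 CPM in checkpoint-high barcodes of C1, C2 and C3, against 334, 312 and 376 CPM in checkpoint-low barcodes.

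Cell cycle genes were higher in members of C3, where 11 of 12 passed 2-fold with a median log2 ratio of 3.16. In C2, 5 of 12 passed with a median of 0.99, and in C1 none did, 2 of 7 being lower. Mki67, a marker of cycling cells, stood at 9.34, 119.9 and 255 CPM in checkpoint-high barcodes of C1, C2 and C3, against 43.1, 60.7 and 21.8 CPM in checkpoint-low barcodes, and had a UMI in 327 of 1739 members of C2 and 81 of 320 members of C3. These values moved with depth: without the 5% deepest CD8 barcodes of each library the list's log2 ratio of summed CPM was 0.82 in C3, against 2.16 with them, and -0.03 in C2, against 0.63. Those barcodes held 67 of the 320 members of C3, and whether they hold more than 1 cell was not tested. Histone genes such as Hist1h1b led the ratios of C3 for the same class of genes, with 467 CPM in checkpoint-high barcodes against 14.1 CPM in checkpoint-low barcodes. The list of 9 glycolysis genes summed to 6029 CPM in checkpoint-high barcodes and 2905 CPM in checkpoint-low barcodes of C3 and to 4694 CPM in checkpoint-high barcodes and 3452 CPM in checkpoint-low barcodes of C2. Among interferon-response genes, Ifi27l2a stood at 469, 796 and 665 CPM in checkpoint-high barcodes of C1, C2 and C3, against 611, 776 and 183 CPM in checkpoint-low barcodes, and the median log2 ratio of that list was -0.37 in C2 and -0.06 in C3.

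The largest ratios in C2, outside the rule's own genes, belonged to genes rare in CD8 barcodes of the other class. Nrgn, which encodes the calmodulin-binding protein neurogranin known from neurons, stood at 102 CPM in checkpoint-high barcodes against 0.678 CPM in checkpoint-low barcodes, and had UMIs in 293 members (16.8%). The checkpoint-low level rests on 2 UMIs, and the ratio of 151 (41.6 to 1246) is correspondingly wide. Spp1, the gene of the secreted protein osteopontin, had UMIs in 84 members of C2 and stood at 68.7 CPM in checkpoint-high barcodes against 0.678 CPM in checkpoint-low barcodes, the last from 2 UMIs, a ratio of 101 (27.9 to 837). Gm156, with no UMI in checkpoint-low barcodes of C2, was at least 47.7-fold higher in members, taking 3 UMIs over the class as the floor. Glp1r, the receptor gene of the gut hormone GLP-1, was singled out after its values were seen. It stood at 64.1 CPM in checkpoint-high barcodes against 3.39 CPM in checkpoint-low barcodes of C2, and had UMIs in 386 members, against 5 of 320 members of C3. Rgs16, a regulator of G protein signals, stood at 172, 398, 39.6 and 30.9 CPM in checkpoint-high barcodes of C1, C2, C3 and C4, against 28.4, 59.7, 1.10 and 1.12 CPM in checkpoint-low barcodes. Nrn1, which encodes neuritin, stood at 27.3 CPM in checkpoint-high barcodes against 0.818 CPM in checkpoint-low barcodes of C3, and 1 barcode gave 33.0% of the members' UMIs. Ly6c2, a surface protein gene of memory CD8 cells, stood at 521, 152, 808 and 540.3 CPM in checkpoint-high barcodes of C1, C2, C3 and C4, against 1197, 756, 2517 and 1137 CPM in checkpoint-low barcodes.

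Markers of other cell types were present in some members, most often in C1. By the counts given for Cd8a above, 17 of 61 members of C1 (27.9%) carried such markers, against 16 of 165 checkpoint-low barcodes (9.70%). The shares were 3.11% and 2.23% in C2, 3.75% and 3.12% in C3, and 10.3% and 1.05% in C4. The 6 NK markers, which include Tyrobp and Fcer1g, summed to 2089.6 CPM in checkpoint-high barcodes and 561 CPM in checkpoint-low barcodes of C1. Without the barcodes carrying such markers, whose choice used 2 of those genes, the sums were 146 CPM in checkpoint-high and 117 CPM in checkpoint-low barcodes. Gzmc, a granzyme of some innate lymphocytes, went with them: it stood at 687 CPM in checkpoint-high barcodes against 121 CPM in checkpoint-low barcodes of C1, and at 0 against 4.90 CPM without those barcodes. Gzmb in C1 stood at 786 against 318 CPM without them, Xcl1 at 1664 against 508 CPM and Il7r at 107 against 288 CPM, so these 3 genes kept their direction. Other genes turned: Cd8a stood at 1206 against 996 CPM, Cxcr6 at 536 against 442 CPM and Tigit at 107 against 124 CPM in C1 without those barcodes. Tyrobp in C2 stood at 87.2 CPM in checkpoint-high barcodes against 40.0 CPM in checkpoint-low barcodes, and at 3.58 against 6.62 CPM without them, in C1 at 16.2 against 40.2 CPM and in C3 at 0.297 against 5.22 CPM, so its place among genes higher in all 3 libraries rests on those barcodes. The 6 NK markers, Fcer1g among them, summed without those barcodes to 12.3 against 13.2 CPM in C2 and 1.78 against 10.7 CPM in C3. Xcl1 in C2 stood at 233 against 132 CPM without those barcodes, so there it kept its direction but was no longer past 2-fold. The 4 MHC class II genes summed to 3727 CPM in checkpoint-high barcodes and 153 CPM in checkpoint-low barcodes of C1, and 95.4% of the members' UMIs came from 1 barcode, which also supplied every UMI of Mmp12 and Mgl2. The same genes summed to 809 CPM in checkpoint-high barcodes and 63.3 CPM in checkpoint-low barcodes of C3, and to 101 and 26.1 CPM without the barcodes named. The macrophage list summed to 92.0 CPM in checkpoint-high barcodes and 24.8 CPM in checkpoint-low barcodes of C2 and 246 CPM in checkpoint-high barcodes and 27.8 CPM in checkpoint-low barcodes of C3, with 49.4% and 49.9% of the members' UMIs from 1 barcode each. The rule held C1qa, C1qb and C1qc of the macrophage list to at most 2 UMIs per barcode. The 4 B cell markers summed to at most 35.3 CPM in members of any library, but the rule required 0 UMIs of Cd79a and Ms4a1 among them. Low sums of these lists were thus partly set by the rule. The delta chain constant gene Trdc stood at 9.34, 0.977 and 1.36 CPM in checkpoint-high barcodes of C1, C2 and C3, against 8.62, 3.39 and 3.19 CPM in checkpoint-low barcodes, while the gamma chain gene Tcrg-C2 stood at 64.5 CPM in checkpoint-high barcodes against 21.0 CPM in checkpoint-low barcodes of C2. What part other cells play in the members' values was not tested beyond these counts.

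Free RNA was read from barcodes of at least 50 and under 200 UMIs, which mainly hold no cell. These drew 35.2% of their UMIs from 8 salivary genes in C1 and 28.1% in C2, against 0.00388% in C3 and 0.00117% in C4. These genes summed to 4364 CPM in checkpoint-high barcodes and 49246 CPM in checkpoint-low barcodes of C1, and to 16115 CPM in checkpoint-high barcodes and 42246 CPM in checkpoint-low barcodes of C2. Without the 5% deepest CD8 barcodes the log2 ratio was -0.22 in C1, against -3.50 with them, and -0.14 in C2, against -1.39. The difference thus lay mostly in the deepest barcodes. For the genes described above, the free RNA level of C2 was 114 CPM for Ccl3, 43.0 CPM for Tigit, 17.2 CPM for Tcf7 and 6.94 CPM for Nrgn, each below the members' level.

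Within the class, members with more of the 4 receptor genes differed step by step from those with fewer. In C2, members with 1, 2, 3 and 4 receptor genes detected numbered 271, 646, 395 and 427. Across these steps Tox stood at 232, 313, 433 and 506 CPM, Tigit at 366, 421, 593 and 759 CPM and Ccl3 at 281, 404, 1244 and 3358 CPM. Prf1 stood at 129, 145, 296 and 767 CPM and Cxcr6 at 345, 449.7, 635 and 835 CPM. Each of these was higher with each further receptor gene. In the other direction, Tcf7 stood at 96.4, 67.3, 9.08 and 5.95 CPM, Il7r at 139, 73.8, 19.3 and 6.98 CPM and Cd69 at 637, 558, 318 and 206 CPM. Gzmk, at 812, 833, 785 and 564 CPM, was lowest in members with all 4 genes. Ccl5 had no common direction, at 19844, 23791, 26416 and 19249 CPM, and at 19980, 27609, 27676 and 25149 CPM when each barcode was thinned to 4042 UMIs. Nrgn stood at 0.741, 16.2, 57.2 and 244 CPM, Spp1 at 3.71, 1.76, 9.84 and 190.4 CPM and Glp1r at 6.67, 18.2, 60.6 and 127 CPM, so these levels were highest in members with all 4 receptors. Median depth was 4587, 4660.5, 5548 and 7633 UMIs over the same steps. After the same thinning, the receptor sum and the number of receptor genes were counted again, while the other gates stayed as on all UMIs. Ccl3 then stood at 295, 621, 1989 and 4417 CPM, Prf1 at 128, 200.3, 433 and 1005 CPM and Tcf7 at 85.6, 50.9, 5.72 and 4.79 CPM.

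In C3 the same steps held 124, 114, 66 and 16 members. Tcf7 stood at 297, 285, 146 and 0 CPM and Il7r at 341, 239.6, 86.1 and 8.68 CPM, while Gzmb stood at 77.9, 194, 283 and 777 CPM, Tox at 77.9, 141, 160.3 and 221 CPM and Prf1 at 65.7, 92.4, 129.7 and 252 CPM. On all UMIs, members with more receptor genes were thus lower in Tcf7 and Il7r and higher in Tox and Prf1 in this library too. The last step rests on 16 barcodes. Gzmb also rose at each step in C3. In C2 it did not, at 609, 807, 935 and 492 CPM over the steps. Thinned to 4042 UMIs, 52, 66 and 22 members held 1, 2 and 3 receptor genes. Tox then stood at 114, 210 and 157 CPM, the last from 14 UMIs (86.1 to 264 CPM), so its rise at each step was not kept. Tcf7 stood at 357, 262 and 67.5 CPM, Il7r at 281, 199 and 112 CPM, Gzmb at 181, 319 and 663 CPM and Prf1 at 95.2, 154 and 236 CPM. On all UMIs, Nrgn stood at 0, 5.77, 21.8 and 4.34 CPM in C3, Spp1 at 6.77, 0.962, 1.09 and 0 CPM and Glp1r at 0, 0.962, 0 and 21.7 CPM. These levels rest on at most 20 UMIs each, and the Glp1r level at the last step on 5 UMIs. Whether the libraries differ in these steps beyond the spread between mice could not be tested.

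**Figure D3:**
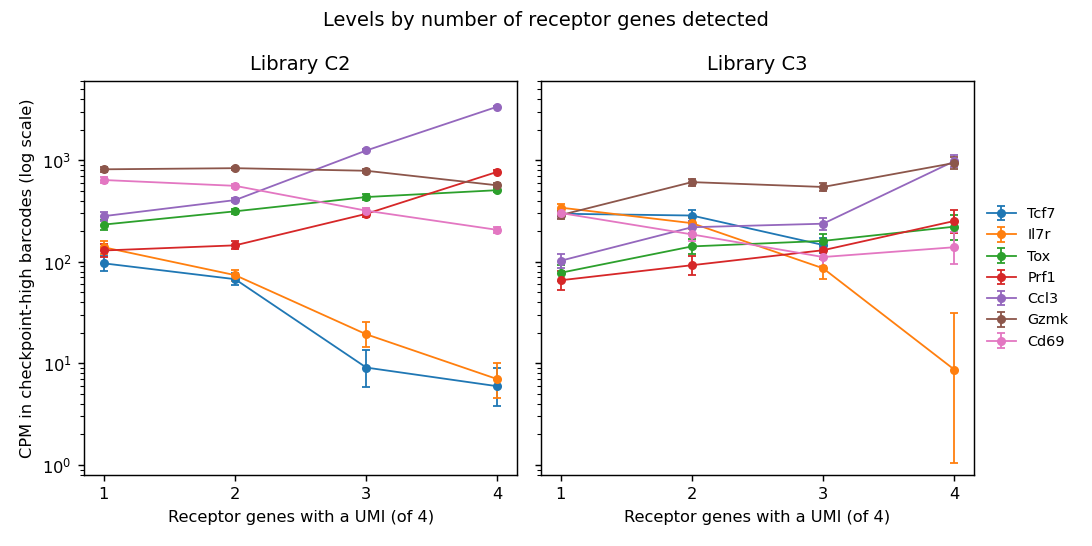
Points give summed CPM in checkpoint-high barcodes with 1, 2, 3 or 4 of the receptor genes detected, in C2 and C3, on a log axis; bars are exact 95% Poisson intervals, and a level of 0 (Tcf7 at 4 genes in C3) is not drawn. In C2, Ccl3 and Prf1 climb and Tcf7 and Il7r descend with the number of receptor genes.

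Tcf7 and Havcr2 divided the members differently in each library. In C2, 755 members (43.4%, 41.1 to 45.8%) held Havcr2 without Tcf7 and 149 (8.57%, 7.29 to 9.98%) held Tcf7 without Havcr2. In C3 the order was the reverse, with 65 (20.3%, 16.0 to 25.1%) and 177 (55.3%, 49.7 to 60.8%). In C1, 7 members (11.5%) held Havcr2 without Tcf7 and 22 (36.1%) held Tcf7 without Havcr2. Thinned to 4042 UMIs, the shares were 41.2% and 6.72% in C2, and 23.1% and 47.6% in C3. The free RNA level of Tcf7 in C3 was 239 CPM, close to the members' 237 CPM. A Tcf7 UMI was found in 60.6% of members of C3 and in 10 of 671 B cell barcodes (1.49%), at median depths of 7959.5 and 5196 UMIs. Havcr2 was found in 0 of the 671, which allows a share of up to 0.548%. In C2, Havcr2 was found in 45.4% of members and in 2 of 25 B cell barcodes, whose median depth was 32937 UMIs. Havcr2 members of C2 without Tcf7 stood at 612 CPM for Prf1, against 109 CPM in Tcf7 members without Havcr2. Ccl3 stood at 2602 CPM and 148 CPM, and Cxcr6 at 765 CPM and 183 CPM, in the same order. Il7r stood at 7.09 CPM and 247 CPM, and Slamf6 at 12.8 CPM and 81.7 CPM. In C3, Gzmb stood at 583 CPM in Havcr2 members without Tcf7 and 41.1 CPM in Tcf7 members without Havcr2, and Gzmk at 984 CPM and 249 CPM. Xcl1 ran the other way, at 226 CPM and 736 CPM in C2 and 216 CPM and 475 CPM in C3. Members with neither transcript numbered 800 in C2 and 61 in C3, at lower median depths of 4522 and 4668 UMIs, and a transcript can be missed in a barcode of that depth.

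**Figure D4:**
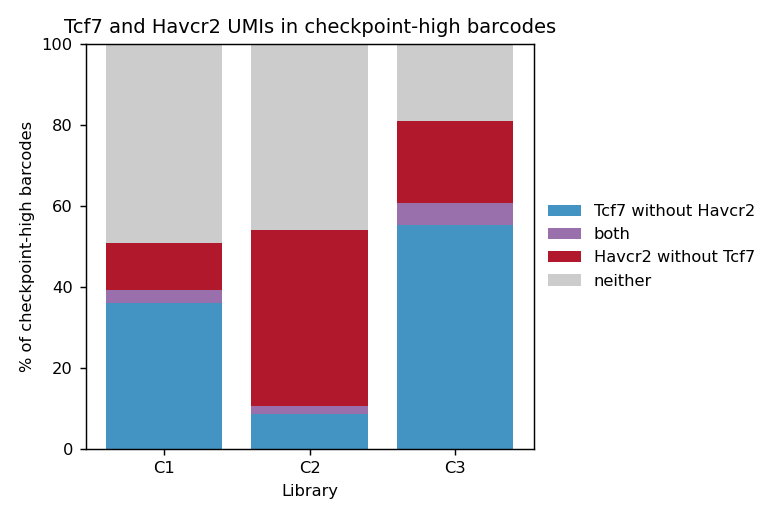
Stacked bars give the percentage of checkpoint-high barcodes with a UMI of Tcf7 only, of both genes, of Havcr2 only and of neither, in C1, C2 and C3. Havcr2 without Tcf7 makes up 43.4% in C2 and Tcf7 without Havcr2 makes up 55.3% in C3.

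T cell receptor V genes, which the rule did not use, were read from the same expression counts. A Trbv transcript (beta chain) was found in 96.7%, 97.2% and 98.4% of members of C1, C2 and C3, and a Trav transcript (alpha chain) in 82.0%, 83.6% and 83.8%. Trbv15 held 12.3% of the Trbv UMIs of members of C2, against 3.91% in checkpoint-low barcodes. Trbv3, the next by UMIs, went the other way, with 11.1% against 15.0%. Trbv29 held 8.13% against 2.65%, Trbv13-2 7.81% against 6.82% and Trbv26 7.10% against 1.36%. The order by members was another: Trbv15 had UMIs in 101 members, Trbv3 in 190, Trbv29 in 176, Trbv13-2 in 304 and Trbv26 in 115. Barcodes whose leading Trbv and Trav gene each had at least 2 UMIs were compared by their V gene pair, which is less than a clonotype, since many clones can share a pair. The chance that 2 such barcodes carried the same pair was 1.16% in 1148 members and 0.484% in 312 checkpoint-low barcodes of C2. In C3 it was 0.524% in 218 members and 0.324% in 2907 checkpoint-low barcodes, and in C1 1.46% in 41 and 1.00% in 91. Cells of 1 clone share their receptor and are not independent, so these shares carry no test.

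The pairs described are those most common in members, so their higher share there is a description. Trbv26 with Trav3-1 was found in 57 of 1148 members (4.97%, 3.78 to 6.39%) and 0 of 312 checkpoint-low barcodes, which allows up to 1.18%. Trbv12-1 with Trav7-4 was found in 47 members (4.09%) and 1 checkpoint-low barcode (0.321%), and Trbv29 with Trav12-1 in 45 (3.92%) and 1. Members with these pairs carried Havcr2 at 395, 321 and 417 CPM, Ccl3 at 3898, 5055 and 3030.1 CPM, and Tcf7 at 1.47, 0 and 2.83 CPM. For all members of C2 these levels were 214 CPM of Havcr2, 1601 CPM of Ccl3 and 36.1 CPM of Tcf7. Havcr2 is a gene of the rule. Members with these pairs were also deeper, at medians of 9795, 8660 and 6851 UMIs, against 5306 UMIs for all members of C2. The next pairs, Trbv13-2 with Trav6-7-dv9 in 27 members (2.35%) and 3 checkpoint-low barcodes (0.962%) and Trbv20 with Trav12-2 in 26 (2.26%) and 3, carried less Ccl3, at 439.7 and 740.3 CPM, and more Gzmk, at 1231 and 963 CPM. In C3 the most common pair of members, Trbv12-2 with Trav7-5, was found in 7 of 218 members (3.21%) and 8 of 2907 checkpoint-low barcodes (0.275%). Checkpoint-low barcodes had leading pairs of their own. These were Trbv17 with Trav5-4 in 12 of 312 (3.85%) in C2 and Trbv20 with Trav13-2 in 108 of 2907 (3.72%) in C3. Some mouse Trav genes are near-identical copies, and how the authors' counting divided their reads is not stated in the labels or headers.

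**Figure D5:**
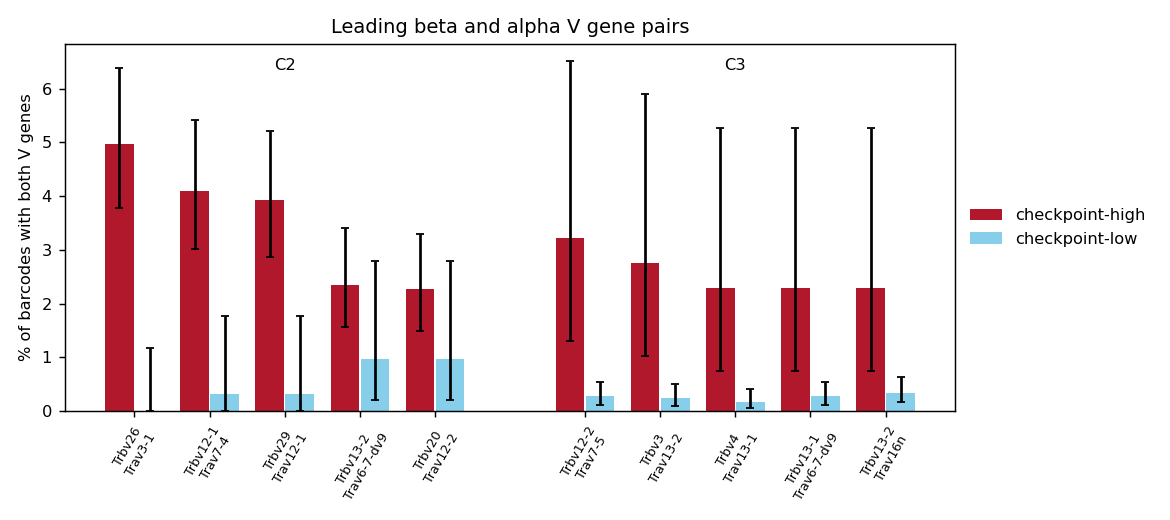
Bars give the 5 most common Trbv and Trav pairs of checkpoint-high barcodes in C2 and C3 as a percentage of barcodes in which both V genes could be read, in checkpoint-high and checkpoint-low barcodes; error bars are exact 95% binomial intervals for counting error. Trbv26 with Trav3-1 reaches 4.97% of checkpoint-high barcodes in C2 and 0% of checkpoint-low barcodes.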

How the data were processed

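Single-cell RNA was counted in 4 expression libraries, and 4 T cell receptor libraries were not analysed here. The deposited matrices hold raw counts of UMIs per gene and barcode for 32285 genes, unfiltered for cells, with no normalization by the authors. Cell Ranger 4 wrote them, per the file headers, while the submitters' processing notes name Cell Ranger 6.1.2, STAR 2.7.10a and mm10. The labels' protocol names a BD Rhapsody workflow and the design text 10x, which was not resolved.

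Barcodes were gated on raw counts as stated in the report. No doublet caller was run, and dropping the 5% deepest CD8 barcodes of each library stood in for one. UMIs were summed per class and library and given as CPM with exact 95% Poisson intervals. Shares carry exact (Clopper-Pearson) 95% intervals. A gene entered a comparison with at least 10 expected UMIs in each class, in libraries with at least 50 members, and was counted when past 2-fold. With 1 library for each label combination, and none tied to a label, no test was possible. Sums over cells of pooled mice cannot tell more RNA per cell and more cells of a kind apart.

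The members and gene lists were chosen with earlier results of these data known. Named were the rule's receptors, up to 4 genes of each list with the highest median CPM in members and the list's extreme ratios, the 10 largest and 10 smallest ratios of each library, and the leading V genes; a gene outside this rule was chosen after its values were seen, which holds for most genes named for their direction across libraries. Promoter sequences and gene positions come from RefSeq, GRCm38.p6, and 3 of the 4 receptor genes were matched in the promoter table. The calculations were tested on simulated data and used Python 3.11.15, numpy 2.4.6, scipy 1.17.1 and pandas 2.3.3, with figures drawn in matplotlib 3.10.9.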

Additional observations from a re-analysis of the deposited data

How the results depend on the processing

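No setting turned the direction of the shares' order, of the progenitor list or of the cytokine list, and neither a minimum of 1000 UMIs nor at most 5% mitochondrial UMIs moved a value beyond its counting error. The share of CD8 barcodes was 15.0%, 65.7%, 3.76% and 1.48% in C1 to C4 with a receptor sum of at least 3, 14.7%, 70.1%, 2.87% and 1.18% after thinning to 4042 UMIs, and 4.98% in C3 and 1.75% in C4 without the 5% deepest barcodes. With at least 30 expected UMIs, 26 genes were higher and 24 lower in C1, 327 and 83 in C2, and 493 and 193 in C3. Thinned, 274 were higher and 194 lower in C3. Without the deepest barcodes 63 were higher in C1 and 388 in C3, and against checkpoint-low barcodes with a receptor sum of 0, 270 were higher in C1.

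The progenitor list's log2 ratio was -0.98, -2.07 and -0.77 in C1, C2 and C3. It was -1.25 in C1 and -2.21 in C2 against a receptor sum of 0, -1.21 in C1 as a mean over barcodes, and -2.15 in C2 and -1.07 in C3 with a receptor sum of at least 3. It was -2.18 in C2 when thinned, -2.14 in C2 and -0.53 in C3 without the deepest barcodes, and -2.16 in C2 without barcodes carrying other-cell markers. The cytokine list's log2 ratio was 0.46, 0.67 and 1.13. It was 0.81, 0.90 and 1.18 in C1, C2 and C3 against a receptor sum of 0, 0.55, 0.76 and 1.85 without the deepest barcodes, 0.59 in C2 and 1.22 in C3 with a receptor sum of at least 3, and 0.75 and 2.07 in C2 and C3 when thinned. As a mean over barcodes it was 0.51 in C1 and 1.81 in C3, with a C1q sum of 0 0.70 in C2, without other-cell barcodes 0.68 in C2 and 1.25 in C3, and without salivary genes 0.40 in C1 and 0.63 in C2.

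Among 467 other values, of 54 list results, 28 changed sign. For 11 of these the reported ratio was past 2-fold, all of them of macrophage and NK markers. The other turns were of lists nearer to 0: cell cycle in C1 and C2, costimulatory receptors in C1 and C2, MHC class II in C2, and residency, early response and gamma-delta T cell genes in C3. For macrophage markers the log2 ratio in C2 was 1.89 as reported, -1.65 with a receptor sum of at least 3, -1.52 when thinned, -0.29 without the deepest barcodes and -0.27 without other-cell barcodes. In C3 it was 3.15 as reported, -3.71 when thinned and -1.69 without the deepest. For NK markers it was 1.14 as reported in C2, -1.35 when thinned and -0.11 without other-cell barcodes. In C3 it was 2.20 as reported, -1.74 when thinned, -1.80 without the deepest and -2.59 without other-cell barcodes. The last setting takes such barcodes out by construction; for the others the cause was not tested.

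Settings without other-cell barcodes and without salivary genes were chosen after seeing the data. Where fewer than 50 members of C1 were left, its counts of genes and its list ratios were not recomputed, except for the 44 members without other-cell markers, whose levels the report gives. The number of members, 61 and 29, limits C1 and C4, and depth limits what a single barcode shows. No paired analysis was possible because each label combination has 1 library and no library is tied to a label.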
